A study of Mus musculus with 12 samples.

Results

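The genes described here encode the mitochondrial respiratory chain, measured in sorted mouse CD4 T cells with and without Blimp1. They were taken by symbol from the array's annotation: nuclear genes beginning with Nduf, Sdh, Uqcr, Cox4 to Cox8 or Atp5, with Cyc1 and Cycs. The array carried 88 of these genes on 118 probes. Of the 12119 genes tested in all, 81 were members, namely 33 genes of complex I, 3 of complex II, 7 of complex III, cytochrome c, 11 of complex IV, 16 of complex V and 10 assembly factors. The other 7, Ndufs1, Sdha, Cox4i2, Cox7b2, Cox8b, Cox8c and Ndufaf6, had no probe that exceeded the array median on 3 or more of the 12 arrays and were left untested.

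The respiratory chain passes electrons from NADH (complex I) and succinate (complex II) through coenzyme Q to complex III, from there through cytochrome c to complex IV, which reduces oxygen. The proton gradient built along the way drives ATP synthesis in complex V. Most subunits are encoded in the nucleus and imported. Complexes I, III, IV and V also hold subunits made inside the mitochondrion, none of which was found on the array under its symbol. Resting and regulatory T cells are known for a strong reliance on oxidative phosphorylation, while activated effector T cells add a high rate of glycolysis.

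The study placed naive CD4 T cells (CD44low) of C57BL/6 background, aged 8 to 12 weeks per the labels, into RAG1-/- hosts, which lack lymphocytes of their own. All donor cells carried a Foxp3 reporter with GFP. Blimp1-sufficient cells (Ctrl) and Blimp1-deficient cells (CKO) bore different allotype marks and were given together in equal numbers, so that both genotypes developed in shared hosts for 6 to 8 weeks. CD4+ Foxp3+ cells (labelled pTreg, here Treg, regulatory T cells) and CD4+ Foxp3- cells (Teff, effector T cells) were then sorted from pooled spleen, large intestinal lamina propria and mesenteric lymph nodes, and all 4 groups were stimulated for 4 h with PMA and ionomycin. Each group had 3 arrays. The labels do not name the allele or Cre line behind the deficiency. They also do not state whether the replicates of a group came from different hosts, so the p-values speak of the spread among these samples only, which may be technical.

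All values are the deposited log2 intensities. The mean of 8 T cell markers was 10.08 to 10.93 on the 12 arrays, and that of 2 B cell markers 4.38 to 4.89. By group, the T cell mean was 10.55 to 10.93 in Ctrl Treg and 10.28 to 10.44 in CKO Treg. It was 10.66 to 10.73 in Ctrl Teff and 10.08 to 10.32 in CKO Teff. CKO was thus lower without overlap in both cell types, and the cause was not tested. The Foxp3 probe averaged 8.02 (Ctrl) and 8.05 (CKO) in the Treg groups, and 4.58 (Ctrl) and 4.64 (CKO) in the Teff groups. The mean of 5 Treg markers, Foxp3 among them, did differ by genotype. It was 10.09 to 10.61 in Ctrl Treg and 9.45 to 9.64 in CKO Treg. In Teff it was 7.97 to 8.26 in Ctrl and 7.19 to 7.87 in CKO. The Prdm1 probe, for the gene of Blimp1, was higher on the arrays labelled CKO, by 3.27 in Treg (limma, Benjamini-Hochberg adjusted p = 0.00953) and by 3.34 in Teff (limma, adjusted p = 0.0235). Where this probe lies relative to the deleted part is not known here, so it does not check the labels, and the groups are named by them. Were the labels Ctrl and CKO exchanged, every sign of CKO against Ctrl below would turn.

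Before the group comparisons, a division among the arrays has to be stated, because it bears on the comparisons between groups. The 25th percentile of the deposited values split the arrays into 6 and 6 at a gap of 0.00577, where the next gap was 0.00236. The leading principal component, with 39.5% of the variance, put the same arrays on either side, from −50.3 to 7.1 and from 16.6 to 27.7. Its largest gap lay elsewhere, between CKO Teff 1 at −31.1 and Ctrl Teff 1 at −9.9, so this component was graded and gave no clear split at 6 and 6. The labels name no such division, and it was found after the data had been seen. Array set 1 held the arrays numbered 1 in all 4 groups and those numbered 2 in both Teff groups. Array set 2 held the arrays numbered 2 and 3 in both Treg groups and those numbered 3 in both Teff groups. Each group therefore lay on both sets, with more Treg arrays in set 2 and more Teff arrays in set 1.

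The mean over the 81 members was 8.78, 9.29 and 9.35 on the 3 Ctrl Treg arrays and 8.92, 9.23 and 9.37 on the CKO Treg arrays. It was 8.96, 8.70 and 9.44 on the Ctrl Teff arrays and 8.78, 8.71 and 9.46 on the CKO Teff arrays. All groups overlapped, and in every group the arrays of set 2 were the high ones. The group means were 9.14 ± 0.32 (SD, n = 3) in Ctrl Treg, 9.18 ± 0.23 in CKO Treg, 9.03 ± 0.38 in Ctrl Teff and 8.98 ± 0.41 in CKO Teff. They thus lay closer together than the arrays within any group, whose ranges were 0.57, 0.45, 0.74 and 0.75. In bulk RNA of this kind, fewer cells of a type and less RNA per cell cannot be told apart.

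**Figure D1:**
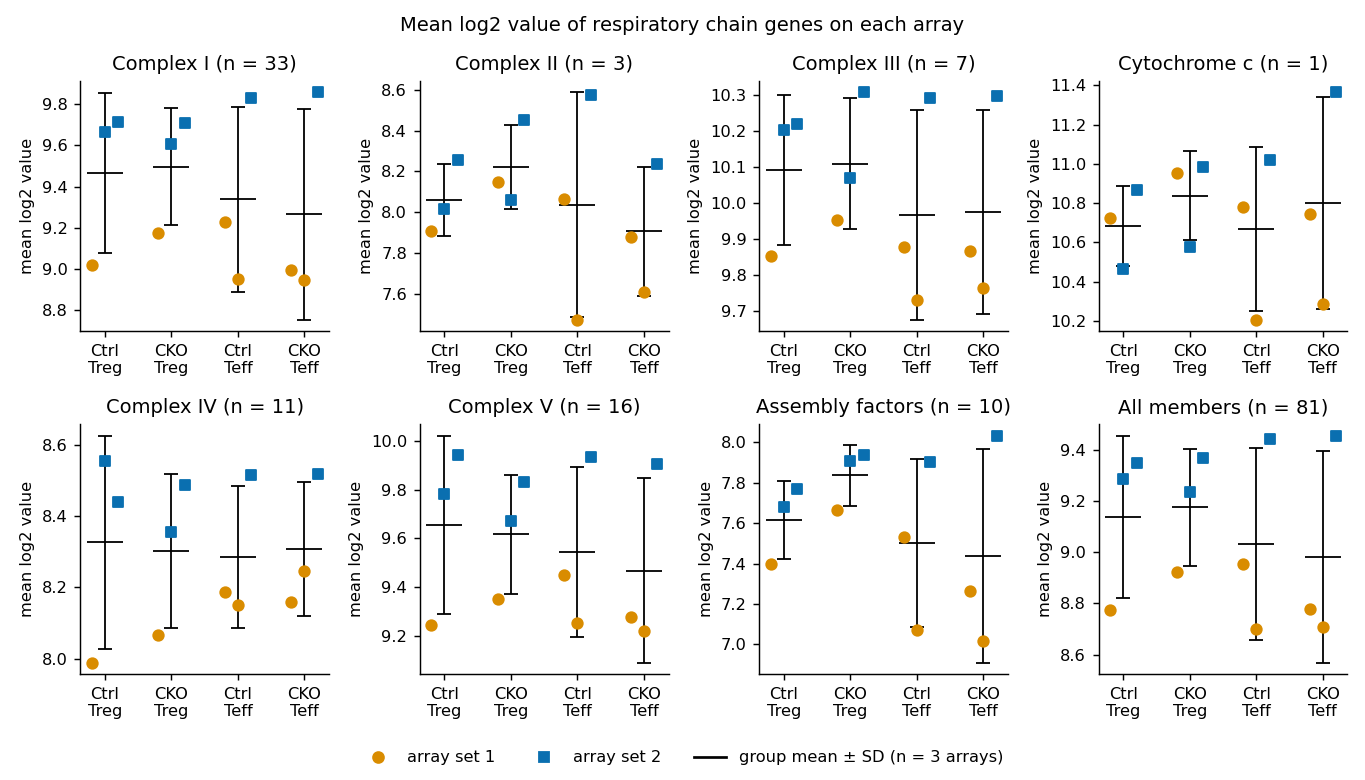
Mean log2 value of the member genes on each of the 12 arrays, one panel per complex and one for all 81 members. Points are arrays, coloured and shaped by array set, and bars are the group mean ± SD (n = 3). The blue squares of set 2 lie above the orange circles of set 1 in each group of the panel of all members, while the 4 group means differ little.

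Promoter sequences are shown as a feature that the choice of members did not use, and their relation to the arrays' values was not tested. NRF1 and the ETS factor GABP are textbook regulators of nuclear respiratory genes, and YY1 binds many of the same promoters. RefSeq windows of the mouse build GRCm38.p6, from 250 bases before to 50 bases after the start, were found for 74 of the 88 members, 79 windows in all. They were searched on both strands for GCGCANGCGC (NRF1), CCGGAAG (ETS) and AAGATGG (YY1), and a window was counted once per motif. The NRF1 letters with T at the open base match on both strands, and the last bases of the ETS letters (AAG) can be the opening ones of the YY1 letters. The NRF1 letters stood in 26.6% of the members' windows against 4.60% of all 32851 windows. The ETS letters stood in 26.6% against 8.86%, the YY1 letters in 13.9% against 6.34%, and at least 1 of the motifs in 57.0% against 18.0%. A match is a description of the sequence, not of binding. The 250 bases before the start are printed 5′ to 3′ for a subunit of complex IV, II, V and III, with matches in capitals (CTTCCGG is the ETS motif read on the other strand).

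Cox6a1, chr5:115348959-115349208, minus strand: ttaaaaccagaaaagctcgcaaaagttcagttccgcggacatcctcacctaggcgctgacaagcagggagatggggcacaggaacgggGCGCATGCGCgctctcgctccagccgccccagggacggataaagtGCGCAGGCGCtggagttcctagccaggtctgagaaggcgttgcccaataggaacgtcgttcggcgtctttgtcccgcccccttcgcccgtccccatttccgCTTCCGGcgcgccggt

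Sdhd, chr9:50603850-50604099, minus strand: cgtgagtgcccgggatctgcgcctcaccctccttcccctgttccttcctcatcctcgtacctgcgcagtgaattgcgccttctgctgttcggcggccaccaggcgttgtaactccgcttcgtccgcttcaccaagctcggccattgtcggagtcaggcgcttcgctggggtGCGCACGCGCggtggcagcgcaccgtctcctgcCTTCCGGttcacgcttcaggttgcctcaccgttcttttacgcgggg

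Atp5c1, chr2:10080433-10080682, minus strand: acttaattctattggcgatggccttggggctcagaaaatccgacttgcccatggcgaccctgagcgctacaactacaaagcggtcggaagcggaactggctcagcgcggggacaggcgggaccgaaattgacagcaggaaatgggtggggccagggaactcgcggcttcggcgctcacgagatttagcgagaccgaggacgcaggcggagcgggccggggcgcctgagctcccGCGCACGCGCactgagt

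Uqcr11, chr10:80406822-80407071, minus strand: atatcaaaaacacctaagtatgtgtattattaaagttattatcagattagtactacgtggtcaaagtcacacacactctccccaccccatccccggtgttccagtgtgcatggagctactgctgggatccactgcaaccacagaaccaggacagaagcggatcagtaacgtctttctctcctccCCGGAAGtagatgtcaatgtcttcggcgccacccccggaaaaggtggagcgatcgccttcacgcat

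Cox6a1 carried the NRF1 letters at 2 places and the ETS letters once, Sdhd each of them once, Atp5c1 the NRF1 letters alone and Uqcr11 the ETS letters alone. The Uqcr10, Uqcrfs1 and Cycs windows held none of these letters. Of the windows of members higher in set 2 without overlap, 55.6% held a motif (n = 36), against 60.0% for the other tested members (n = 40). No test was made of these shares.

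The comparison of CKO with Ctrl asks what the loss of Blimp1 changes in each cell type. No member passed the threshold (adjusted p under 0.05) in Treg, where 12 genes or 0.099% of all genes tested did, and none in Teff, where 2 genes or 0.0165% did (limma). At an unadjusted p under 0.05, 0 members stood in Treg and 1 in Teff (Sdhaf2), against 5.33% and 4.17% of all genes (limma). The median difference of the members was 0.02 in Treg, with 46 above 0, and −0.05 in Teff, with 33 above 0. The medians over all genes were 0.00 and −0.02. The members' differences ran from −0.34 to 0.50 in Treg and from −0.39 to 0.34 in Teff. In Teff, markers of other cells stood apart on CKO Teff 1 and 2: the mean of 5 basophil and mast cell markers was 10.72 and 9.72 there, 5.09 on CKO Teff 3, and 5.26, 6.12 and 4.59 on the Ctrl Teff arrays. The mean of 6 CD8 and NK cell markers was 7.58, 8.60 and 6.47 on the CKO Teff arrays and 6.42, 6.46 and 6.23 on the Ctrl Teff arrays. These 6 did not move together. Klra7 read 8.21, 10.84 and 5.78 in CKO Teff against 4.90, 5.52 and 4.51 in Ctrl Teff. Cd8b1 read 9.31, 8.45 and 9.90 against 9.52, 8.80 and 9.87, and Klrb1c 4.68, 4.80 and 4.49 against 4.50, 4.46 and 4.72. The part of other cells in the Teff values was not tested.

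**Figure D2:**
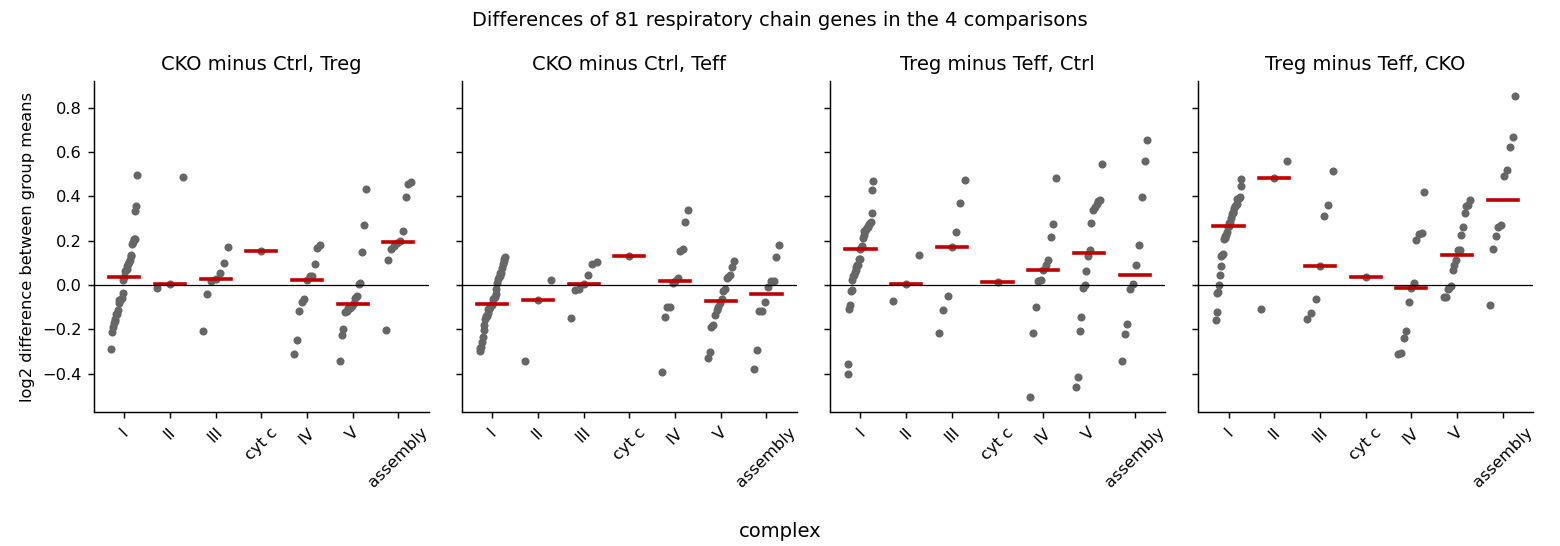
Log2 difference between group means for each of the 81 members, by complex, in the 4 pairwise comparisons. Points are genes, red lines the median of each complex and the black line marks 0. The genotype panels centre near 0, and 27 and 28 of 33 points of complex I lie above 0 in the panels of Treg against Teff, against 9 and 16 with the array set as a block. No member passed the threshold in any panel.

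Same-numbered Ctrl and CKO arrays deviated together over all genes, so the genotype difference was also read within pairs. In Treg the mean over the members differed by 0.15, −0.05 and 0.02 in the 3 pairs, with 58, 35 and 41 members above 0. In Teff it differed by −0.18, 0.01 and 0.01, with 21, 41 and 44 above 0. The pairs numbered 1 departed most from 0, in opposite directions in the 2 cell types, and the other pairs lay close to it. With the replicate number as a block, limma called 264 genes in Treg (2.18% of all) and 12 in Teff (0.099%), and again 0 members in both. Then 8 members in Treg and 3 in Teff were under an unadjusted p of 0.05, against 14.1% and 10.4% of all genes. With the array set as a block in place of the number, a fit chosen after the data had been seen, 0 members passed (0.206% of all genes in Treg, 0.0165% in Teff), and 4 in Treg and 1 in Teff were under an unadjusted p of 0.05, against 7.62% and 5.74% of all genes (limma).

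**Figure D3:**
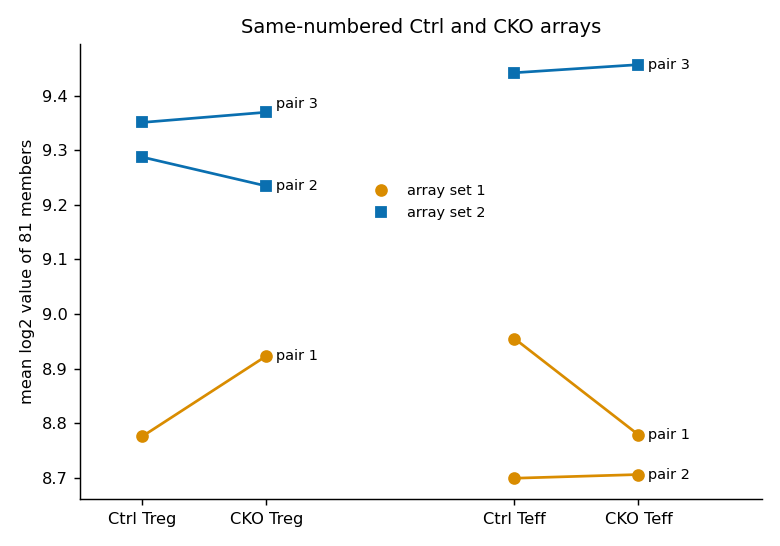
Mean log2 value of the 81 members on same-numbered Ctrl and CKO arrays, joined by lines. The axis does not start at 0, and colour and shape give the array set. The lines of the pairs numbered 1 slope in opposite directions, by 0.15 in Treg and −0.18 in Teff, and the others are nearly level. The pairs of set 2 lie above those of set 1 in both cell types.

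How small a change the arrays allow follows from the 95% intervals. In the fit without pairs the whole interval lay within a 2-fold change either way for 54 of 81 members in Treg and 60 in Teff. With pairs it did so for all 81 in both, with a median standard error of 0.14 in place of 0.30. A missed threshold does not show that a gene was the same in both genotypes.

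Complex I oxidises NADH, and Ndufv1 holds the flavin that accepts its electrons. Ndufv1 read 10.46, 10.27 and 10.36 in Ctrl Treg and 10.32, 10.25 and 10.90 in CKO Treg. It read 10.30, 9.84 and 10.73 in Ctrl Teff and 10.23, 9.80 and 10.60 in CKO Teff. These groups overlapped throughout, and CKO differed from Ctrl by 0.13 ± 0.26 (SE) in Treg and by −0.09 ± 0.26 in Teff.

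Ndufs3, another core subunit of the matrix arm, was the complex I gene whose Treg groups stood apart. It read 9.34, 9.49 and 9.53 in Ctrl Treg against 9.80, 9.88 and 9.73 in CKO Treg. In Ctrl Teff it read 9.51, 9.13 and 9.80, and in CKO Teff 9.40, 9.09 and 9.48. All CKO Treg arrays were above all Ctrl Treg arrays, while the Teff groups overlapped. The Treg difference of 0.35 ± 0.17 (SE) had an adjusted p of 0.969 (limma), and 0.185 with the replicate number as a block. Ndufab1 is the acyl carrier protein of mitochondria and a subunit of complex I. It had the highest Treg difference of all members, 0.50 ± 0.32 (SE, fit without pairs), with overlapping groups. Its adjusted p within pairs was 0.127 (limma).

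Across complex I the median genotype difference was 0.04 in Treg, with 18 of 33 genes above 0, and −0.09 in Teff, with 11 of 33 above 0. Ndufs1, the largest core subunit, was not among the tested genes, since its probe averaged 4.57 and passed the array median on 1 array. Cox5b and Cox8a were not analysed here.

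Complex II, succinate dehydrogenase, also belongs to the citrate cycle. Its membrane anchor Sdhd read 5.30, 5.34 and 5.58 in Ctrl Treg and 5.61, 5.73 and 6.35 in CKO Treg. It read 5.31, 4.70 and 6.19 in Ctrl Teff and 5.29, 4.99 and 5.72 in CKO Teff. The Treg groups did not overlap and the Teff groups did. The Treg difference was 0.49 ± 0.34 (SE, fit without pairs), and the adjusted p within pairs was 0.198 (limma).

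The iron-sulphur subunit Sdhb read 9.17, 9.60 and 9.70 in Ctrl Treg and 9.61, 9.17 and 9.70 in CKO Treg, with a difference of 0.01 ± 0.24 (SE). In Teff it read 9.28, 8.95 and 9.84 in Ctrl and 8.89, 8.92 and 9.22 in CKO, a difference of −0.34 ± 0.24 (SE). Sdhc, the other anchor, differed by −0.01 in Treg and 0.02 in Teff. Sdha, the flavoprotein, had a probe at 4.38 on average that exceeded the array median on 0 arrays.

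Sdhaf2 attaches the flavin to Sdha. It read 7.15, 7.15 and 7.39 in Ctrl Treg and 6.90, 7.15 and 7.03 in CKO Treg, and 7.10, 6.89 and 7.14 in Ctrl Teff and 6.80, 6.59 and 6.87 in CKO Teff. CKO was lower than Ctrl without overlap in both cell types, by a narrow margin in each. The differences were −0.20 ± 0.13 and −0.29 ± 0.13 (SE, fit without pairs), and the adjusted p within pairs was 0.504 and 0.409 (limma). Counting all members, 3 genes in Treg had groups without overlap, Sdhd and Ndufs3 higher and Sdhaf2 lower in CKO, where 12.3% of all genes did. In Teff Sdhaf2 alone did, where 6.77% of all genes did.

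The assembly factors as a group, Sdhaf2 included, leaned to higher values in CKO Treg. Of the 10, 9 were above 0 and Sdhaf2 was below, with a median of 0.20. In Teff 4 of 10 were above 0, with a median of −0.04. Of 21 further assembly factors outside the symbol rule, 15 were above 0 in Treg (median 0.05) and 11 in Teff (median 0.04). Of all 12119 genes, 6091 were above 0 in Treg and 5362 in Teff. Ndufaf8, which acts in the assembly of complex I, read 6.91, 7.73 and 7.46 in Ctrl Treg and 7.36, 8.09 and 8.05 in CKO Treg. In Teff it read 7.54, 7.21 and 8.01 in Ctrl and 7.18, 6.43 and 8.02 in CKO. The groups overlapped in both cell types, and within each Treg pair the CKO array was the higher.

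The difference between the genotype effects in Treg and in Teff was tested as an interaction. No member passed, where 2 genes or 0.0165% of all genes did, and 0 members were under an unadjusted p of 0.05, against 3.48% of all genes (limma). With the replicate number as a block 0 members passed, where 0.0413% of all genes did, and 5 were under an unadjusted p of 0.05, against 11.4%. With the array set as a block 0 passed, where 0.0248% did, and 3 were under it, against 5.47% (limma). The median of the members was 0.07, with 53 of 81 above 0, and that of all genes 0.02. Of all 12119 genes, 6492 were above 0. Of 21 further assembly factors outside the symbol rule, 11 were above 0, with a median of 0.003. All 10 assembly factors among the members were above 0, from 0.01 to 0.84, with a median of 0.25. Ndufaf8 had the highest value of all members, 0.84 ± 0.55 (SE), followed in this group by Ndufaf7, another complex I assembly factor, at 0.51 ± 0.49 (SE). Among the subunits Atp5o, the stalk protein OSCP of the ATP synthase, gave 0.57 ± 0.34 and Sdhd 0.55 ± 0.49 (SE). At the other end Cox7b gave −0.47 ± 0.34, Cox7a1 −0.40 ± 0.26, Cox6b2 −0.26 ± 0.25 and Ndufb2 −0.24 ± 0.55 (SE). The lowest adjusted p of any member with the replicate number as a block was 0.207, that of Ndufaf8 (limma).

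Complex III carries electrons from coenzyme Q to cytochrome c. The core protein Uqcrc1 read 11.19, 11.11 and 10.92 in Ctrl Treg, 11.15, 11.00 and 10.96 in CKO Treg, 10.98, 10.86 and 10.87 in Ctrl Teff and 11.06, 10.77 and 11.02 in CKO Teff. Its genotype differences were −0.04 ± 0.12 in Treg and 0.05 ± 0.12 in Teff (SE), with 95% intervals from −0.30 to 0.23 and from −0.22 to 0.31.

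Cyc1, which is cytochrome c1, differed by 0.05 in Treg and 0.00 in Teff, and Uqcrc2 by 0.10 and −0.02. Uqcrfs1, the Rieske iron-sulphur protein, lay between 4.47 and 5.14 on all arrays, close to the array medians of 4.66 to 4.68, so its probe gives little information. The mobile carrier Cycs read 10.72, 10.46 and 10.86 in Ctrl Treg and 10.95, 10.58 and 10.98 in CKO Treg, with each CKO array above its pair and the groups overlapping. The difference was 0.15 ± 0.28 (SE).

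Complex IV subunits exist as isoforms of different tissues. The widely expressed Cox4i1 read 11.97, 12.41 and 12.29 in Ctrl Treg, 11.93, 12.18 and 12.20 in CKO Treg, 12.13, 12.05 and 12.14 in Ctrl Teff and 11.87, 12.07 and 12.40 in CKO Teff. No group stood apart, and the genotype differences were −0.12 ± 0.16 and 0.01 ± 0.16 (SE). Cox5a differed by 0.17 in Treg and 0.03 in Teff, and Cox6a1 by 0.04 and −0.10. The probes of the isoforms known from other tissues stayed near the array medians: Cox6a2 (heart and muscle) between 4.50 and 4.90, Cox6b2 (testis) between 4.16 and 5.05, and Cox7a1 (heart and muscle) between 4.80 and 5.46. Cox4i2, Cox7b2, Cox8b and Cox8c did not pass the filter on low values at all.

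Complex V makes ATP. Its catalytic beta subunit Atp5b read 13.89, 13.72 and 13.95 in Ctrl Treg and 13.95, 14.00 and 14.05 in CKO Treg, and 13.97, 13.52 and 14.07 in Ctrl Teff and 13.78, 13.45 and 13.79 in CKO Teff. The genotypes overlapped in both cell types, with differences of 0.15 ± 0.16 and −0.18 ± 0.16 (SE). The alpha subunit Atp5a1 differed by −0.05 and −0.03, the gamma subunit Atp5c1, which turns within the head, by −0.12 and 0.04, and the ring subunits Atp5g2 and Atp5g3 by −0.10 and −0.08 in Treg and 0.11 and −0.06 in Teff. Over complex V the medians were −0.09 in Treg and −0.07 in Teff, with 5 of 16 genes above 0 in each.

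Treg were compared with Teff within each genotype to ask how the cell types differ. No member passed the threshold in Ctrl, where 123 genes or 1.01% did, and none in CKO, where 43 or 0.355% did (limma). At an unadjusted p under 0.05 there was 1 member in each, Ndufb11 lower in Ctrl Treg and Ndufs3 higher in CKO Treg, against 10.4% and 10.8% of all genes. The members leaned to higher values in Treg, with a median of 0.11 and 58 of 81 above 0 in Ctrl, and a median of 0.23 and 60 of 81 above 0 in CKO, against 0.01 and 0.03 over all genes.

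This lean moved with the array sets. With the array set as a block the medians were −0.07 in Ctrl, with 29 of 81 above 0, and −0.02 in CKO, with 36 of 81 above 0. Within set 1 alone, with 1 Treg and 2 Teff arrays per genotype, the medians were −0.07 in Ctrl and 0.15 in CKO. Within set 2 alone, with 2 Treg arrays and 1 Teff array per genotype, they were −0.08 and −0.14. No member passed in the blocked fit either, where 1.47% of all genes did in Ctrl and 0.545% in CKO (limma), and 7 members in Ctrl and 3 in CKO were under an unadjusted p of 0.05, against 12% and 11.7% of all genes. With the replicate number as a block 0 members passed, where 0.784% did in Ctrl and 0.165% in CKO, and 4 and 7 were under the unadjusted p, against 12.8% and 13.6% (limma). The intervals of 51 members in Ctrl and 47 in CKO lay within a 2-fold change either way without a block. With the array set as a block 79 and 80 did so, and with the replicate number as a block 66 and 59.

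By complex, without the block, the medians in Ctrl were 0.16 for complex I, 0.01 for II, 0.17 for III, 0.07 for IV, 0.14 for V and 0.05 for the assembly factors. In CKO they were 0.27, 0.48, 0.09, −0.01, 0.13 and 0.38 in the same order. With the array set as a block they were −0.10, −0.17, −0.06, −0.10, −0.04 and −0.02 in Ctrl, and −0.01, 0.36, −0.03, −0.16, −0.05 and 0.29 in CKO. Sdhaf1, which helps to fit iron-sulphur clusters into Sdhb, reached the highest value of all members in CKO, 0.85 ± 0.48 (SE), and Sdhaf4, which acts on Sdha, the highest in Ctrl, 0.66 ± 0.42 (SE). Both differed between the array sets as well, by 1.19 and 0.98.

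Ndufs3 had the clearest separation in CKO: its Treg values of 9.80, 9.88 and 9.73 lay above the Teff values of 9.40, 9.09 and 9.48, a difference of 0.48 ± 0.17 (SE; limma, adjusted p = 0.315). Atp5b was 0.33 ± 0.16 higher without overlap, and Sdhaf2 0.27 ± 0.13, while Cox6a2 was lower at −0.21 ± 0.11 (SE), near the array median. These 4 members without overlap compare with 13.7% of all genes. In Ctrl there were 3, where 14.3% of all genes did: Ndufaf5, a complex I assembly factor, higher in Treg by 0.40 ± 0.26, Sdhaf2 higher by 0.18 ± 0.13, and Ndufaf4, another such factor, lower at −0.34 ± 0.19 (SE). Ndufb11, a membrane arm subunit of complex I, was lower in Ctrl Treg at −0.40 ± 0.15 (SE; limma, adjusted p = 0.327), on a probe between 4.45 and 5.22.

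Set 2 exceeded set 1 by a median of 0.51 over the members, against 0.03 over all genes. Of the 81 members 72 were higher and 9 lower in set 2. In 39 of 81 all 6 arrays of set 2 lay above all 6 of set 1, and in 0 below, against 4.44% and 1.77% of all genes. In 13 members the difference was at least 2-fold. The direction was the same within each group: by 0.54 in Ctrl Treg, 0.38 in CKO Treg, 0.61 in Ctrl Teff and 0.71 in CKO Teff on the mean over the members, with 67, 64, 76 and 75 of 81 above 0. Each of these values sets 1 array against 2, with 1 array of set 1 in the Treg groups and 1 array of set 2 in the Teff groups. As the sets were formed from the arrays' values, these differences are given as a description, with no test.

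**Figure D4:**
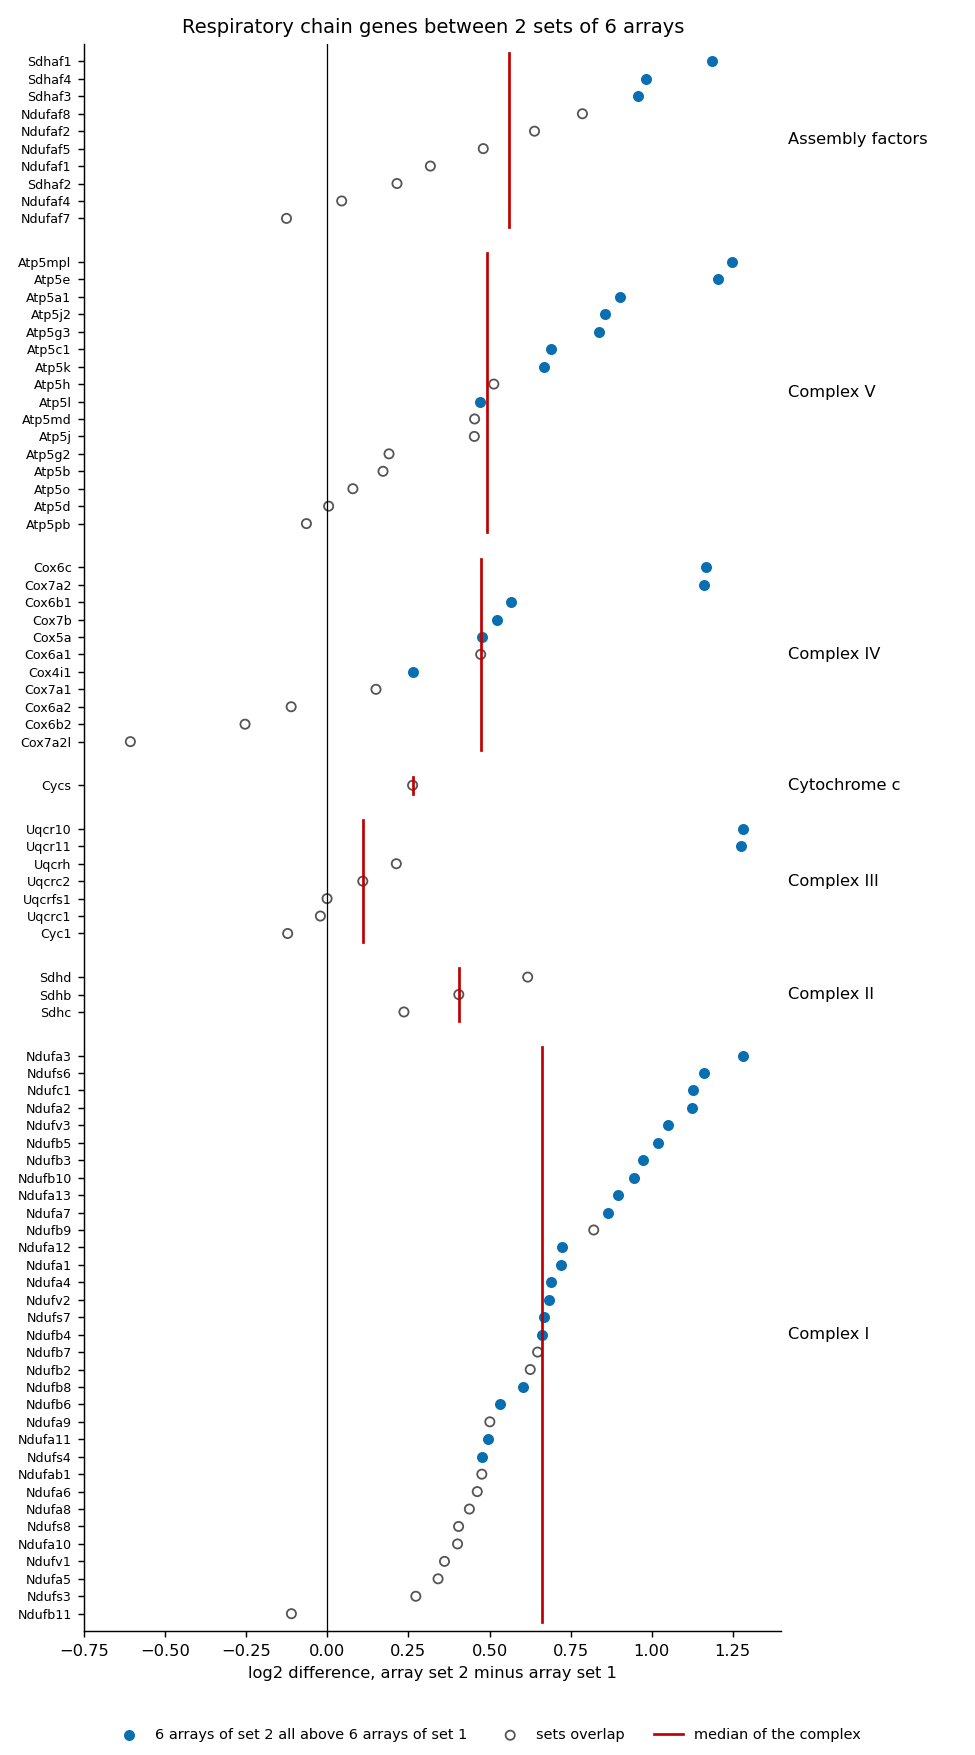
Log2 difference between array set 2 and array set 1 (means of 6 arrays each) for every member, grouped by complex. Filled points are genes whose 6 arrays of set 2 all lie above the 6 of set 1, open points those that overlap, and red lines the medians of the complexes. Filled points number 39 of 81 and none lies below 0.

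The size differed between members. Complex I had the highest median of the complexes, 0.66, with 20 of 33 genes free of overlap. The 5 tested core subunits had a median of 0.40 and the other 28 genes of the prefix, accessory subunits and Ndufa4, 0.68. Ndufa3, an accessory subunit, read 9.02 in Ctrl Treg, 9.37 in CKO Treg, 9.60 and 9.73 in Ctrl Teff and 9.60 and 9.28 in CKO Teff on set 1. On set 2 it read 10.75 and 10.72, 10.72 and 10.64, 10.66, and 10.78 in the same order of groups. The sets were apart by 1.28, and the lowest array of set 2 lay above the highest of set 1. Ndufs6 and Ndufc1, further accessory subunits, differed by 1.16 and 1.13, and Ndufa4, named for complex I but found in complex IV, by 0.69.

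Complex III was split among its own subunits. Uqcr10, a small subunit, averaged 11.27 on set 1 and 12.56 on set 2, and Uqcr11, another one, 9.66 and 10.93. Uqcrc1 averaged 11.00 and 10.98, Uqcrc2 11.23 and 11.34, Cyc1 9.64 and 9.52, and Uqcrh, the hinge protein, 11.40 and 11.61. Only Uqcr10 and Uqcr11 of the 7 genes were free of overlap, and the median of the complex was 0.11. A further probe of Uqcr10 gave 1.46 beside the 1.28 of the probe used.

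**Figure D5:**
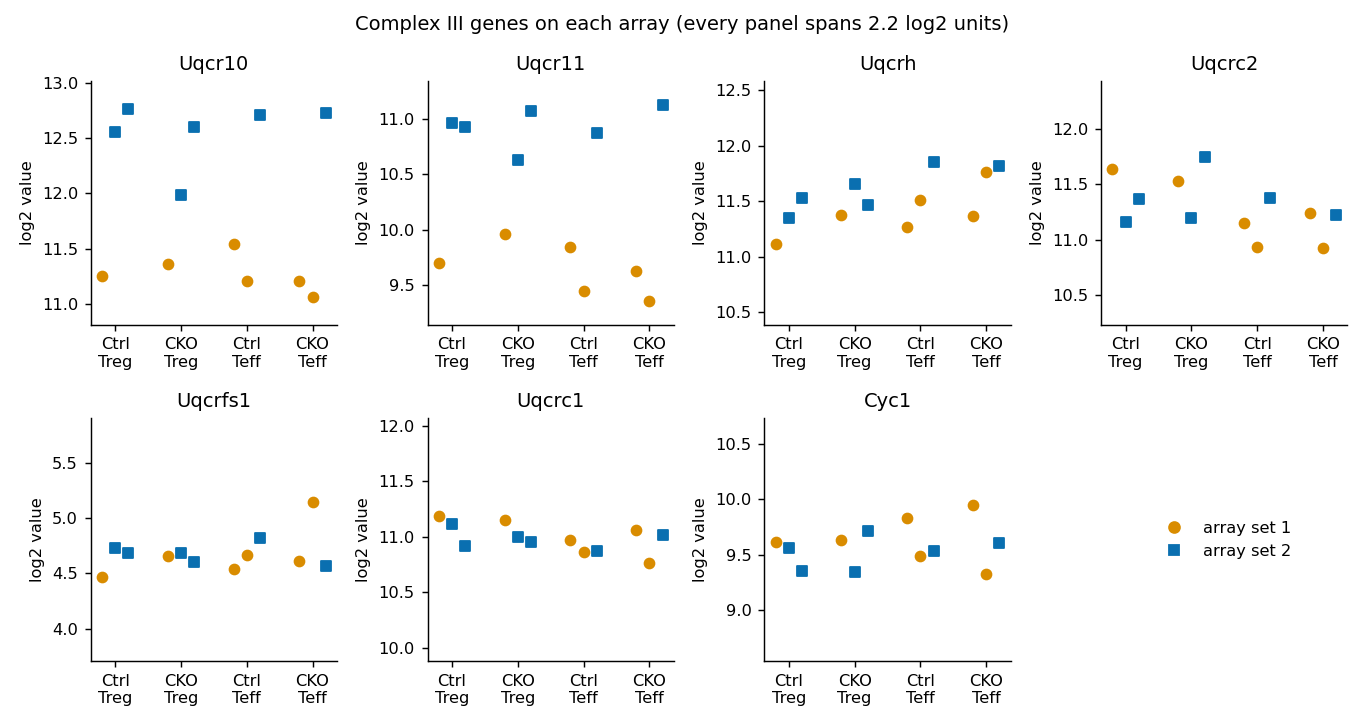
Log2 value of the 7 complex III genes on each array, in order of their difference between the array sets. Each panel spans the same 2.2 log2 units around its own centre, and colour and shape give the array set. All 6 arrays of set 2 lie above all 6 of set 1 for Uqcr10 and Uqcr11, and the sets overlap for the other 5 genes.

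Complex IV had a median of 0.47, with 6 of 11 genes free of overlap. Cox6c differed by 1.17 and Cox7a2 by 1.16, both small subunits, and Cox6b1 by 0.57, Cox7b by 0.52 and Cox5a by 0.48. Cox4i1 differed by only 0.27 but without overlap. Cox7a2l, described as a factor of supercomplexes of III and IV, went the other way. It had the lowest value of all members, −0.61, with overlapping sets: its highest arrays were Ctrl Teff 2 at 9.88 and CKO Teff 2 at 10.10.

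Complex V had a median of 0.49, with 8 of 16 genes free of overlap. The small subunit Atp5mpl differed by 1.25 and the epsilon subunit Atp5e by 1.20, and Atp5a1 differed by 0.90, the ring subunit Atp5g3 by 0.84 and Atp5c1 by 0.69. The delta subunit Atp5d differed by 0.00, Atp5b by 0.17 and Atp5g2 by 0.19. Atp5k passed the filter on low values through set 2 alone, on 6 arrays. Across the 81 members the mean level and the difference between the sets had a Spearman correlation of 0.09, with all points read from the same 12 arrays.

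Other mitochondrial genes, from lists of known function, were compared in the same way. The set difference had a median of 0.19 for 14 enzymes of the citrate cycle and pyruvate dehydrogenase, 0.12 for 14 regulators of mitochondrial biogenesis, 0.41 for 21 further assembly factors, 0.35 for 9 genes of coenzyme Q synthesis and 0.23 for 17 genes of protein import and transport. In the fit without pairs 0 members of these lists passed in any comparison between groups (limma), and in either genotype comparison 0 were under an unadjusted p of 0.05. Within pairs Tfb1m, described below, was past the threshold in Treg, where 2.18% of all genes were. Bcs1l, which inserts the Rieske protein into complex III, read 7.33, 7.07 and 7.24 in Ctrl Treg against 6.47, 5.94 and 6.81 in Ctrl Teff, and 7.42, 7.03 and 7.79 in CKO Treg against 6.58, 6.66 and 7.09 in CKO Teff. Treg were higher without overlap in Ctrl and overlapped by a narrow margin in CKO. The differences were 0.80 and 0.63 (limma, adjusted p = 0.219 and 0.386). Cox11, of the same list, went the other way in Ctrl. It read 5.18, 5.67 and 5.56 in Ctrl Treg against 6.15, 6.18 and 5.84 in Ctrl Teff, lower without overlap, and the CKO groups overlapped. Of all genes, 14.3% were without overlap in Ctrl.

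Suclg2, a subunit of succinyl-CoA ligase, read 6.24, 6.52 and 6.46 in CKO Treg and 5.81, 5.24 and 5.81 in CKO Teff, higher in Treg without overlap by 0.79 (limma, adjusted p = 0.236). Of all genes, 13.7% were without overlap in CKO. At an unadjusted p under 0.05, 1 of the 14 citrate cycle and pyruvate dehydrogenase enzymes was higher and 1 lower in CKO Treg (limma). Of the 21 further assembly factors, 1 was higher and 1 lower in Ctrl Treg, and 1 was higher in CKO Treg. In the other lists, 1 of 14 regulators of biogenesis was higher in Ctrl Treg. Of 17 genes of import and transport, 1 was higher in CKO Treg. These counts compare with 10.8% of all genes in CKO and 10.4% in Ctrl. Tfb1m, which modifies mitochondrial ribosomal RNA, read 5.54, 5.97 and 6.17 in Ctrl Treg and 6.28, 6.66 and 6.88 in CKO Treg. The difference of 0.71 had an adjusted p of 0.0497 within pairs and 1.00 without them (limma), and each CKO array lay above its pair.

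Markers of other cells also differed among the arrays. The mean of 11 neutrophil markers was 8.13 to 9.94 on set 1 and 5.94 to 8.84 on set 2. The T cell markers, 10.08 to 10.93 on set 1 and 10.28 to 10.74 on set 2, overlapped. Ctrl Teff 2 of set 1 had the highest neutrophil mean, 9.94, and the lowest member mean, 8.70. CKO Teff 3 of set 2 had the highest member mean, 9.46, and a neutrophil mean of 7.28. The lowest neutrophil mean, 5.94, was that of CKO Treg 2 of set 2, whose member mean was 9.23. Ctrl Treg 1 of set 1 and Ctrl Treg 3 of set 2 had nearly the same neutrophil mean, 8.90 and 8.84, and member means of 8.78 and 9.35. The part of these cells, or of the arrays' processing, in the members' set difference was not tested.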

How the data were processed

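Total RNA was purified with Qiagen columns and turned into biotin-labelled cRNA for 12 Illumina arrays, per the labels. The authors deposited log2 intensities, 1 per probe and array, a scale read from their range. GenomeStudio and limma 3.30.11 are named in the submitters' processing notes. The background correction and the normalization are not stated there or in the labels. The array medians were 4.66 to 4.68, so the values were used as deposited. The number of arrays limits the precision.

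Of 31641 probes, 28197 had a single gene symbol in the platform annotation, and 17579 lay above the median of their array on at least 3 arrays. Each gene took its kept probe with the highest mean, giving 12119 genes. Of the members, 19 had several kept probes, and 21 of the 24 other probes had the same sign between the array sets. Tests used R 4.3.3 and its package limma 3.58.1 (lmFit and eBayes, 1 mean per group, all arrays in the fit, 10.5 total degrees of freedom), two-sided, with Benjamini-Hochberg adjustment over all genes and a threshold of 0.05. The pipeline was tested on simulated data. Complexes follow the symbol prefixes, with assembly factors set apart.

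Named genes were the catalytic or defining subunits and the isoform sets, the members without overlap between groups (up to 4 per direction and comparison), the 4 highest and 4 lowest interactions and the 3 with the largest spread over arrays. Other genes, among them Ndufab1, Sdhaf1, Sdhaf4, Ndufb11 and further ones of the array set and list descriptions, were chosen for naming once their values were known. The members and lists were chosen with earlier results of these data known.

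Residuals of same-numbered CKO and Ctrl arrays correlated at 0.519 to 0.589 across genes in Treg and 0.348 to 0.737 in Teff, each array best with its own number, so the numbers were taken to pair the genotypes. Between Treg and Teff they correlated at −0.266 to 0.265 in Ctrl and 0.0413 to 0.325 in CKO, and were not taken as pairs. Promoter windows are RefSeq's, searched in Python 3.11.15. The alternatives were the replicate block, leaving out each array, quantile normalization, centring on the array median, a filter at the 75th percentile or none, averaging a gene's probes, trend and robust settings of eBayes, and fits on the groups compared alone. The array set block and each set alone were added after seeing the data.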

Additional observations from a re-analysis of the deposited data

How the results depend on the processing

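In all 23 alternatives, the replicate block and the array set block included, 0 of 81 members passed the threshold in each of the 5 comparisons (limma), and the lowest adjusted p of the 36 named members was 0.0882. With the replicate block the members' median genotype differences are 0.02 in Treg and −0.05 in Teff, as without it by construction, since each number holds 1 array of each group. Directions were not stable: of 180 differences of named members, 124 turned sign in at least 1 alternative. The median over the members ran from −0.19 to 0.15 for CKO against Ctrl in Treg, −0.29 to 0.17 in Teff, −0.08 to 0.31 for Treg against Teff in Ctrl, −0.14 to 0.45 in CKO and −0.15 to 0.33 for the interaction. Between the array sets, the count of members free of overlap was 36 to 45 over 17 alternatives, with a median difference of 0.48 to 0.58. Leaving out each array in turn gave counts of 39 to 45, which by construction cannot be lower than with all arrays, and medians of 0.50 to 0.57. Treg against Teff was read without pairs because same-numbered arrays of these groups did not deviate together in every pair; with the replicate block 95 genes passed in Ctrl and 20 in CKO, against 123 and 43. The cause of these shifts was not tested. Probes near the array median carry little information on low genes.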
